A study of Mus musculus with 20 samples.

Results

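The crypts of wild-type mice were compared by housing. Of the 20 libraries of the series, 11 came from wild-type mice, 5 of which had shared cages with Xiap-/- mice for 4 weeks (called co-housed) and 6 of which had lived with their own genotype (called housed apart). They were chosen by sample title, and the comparison runs across the 9521 of 23020 listed genes with a mean, taken over all 20 columns, of log2 of 10 or more. The other 9 libraries came from 5 co-housed Xiap-/- mice and 4 Xiap-/- mice housed apart, and are used here to set beside the wild-type values. All mice were C57BL/6. Xiap encodes the X-linked inhibitor of apoptosis protein, and the labels do not describe the deleted part of the gene. Nor do they give the cage, the age, the sex or the time of collection of a mouse, so the libraries were treated as independent mice although cage mates share a cage, and the p-values measure the spread between these samples.

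Crypts are the pits at the base of the intestinal villi, where stem cells divide, Paneth cells release antimicrobial proteins, and goblet, enteroendocrine and absorptive cells are formed. Mice in a shared cage take up one another's droppings, and co-housing is used to even out gut microbes between animals. The epithelium is known to answer microbes with lectins of the Reg3 family, with the oxidase Duox2 and with acute phase proteins. No microbial measurement was used here.

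RNA was measured by sequencing the 3' ends of polyadenylated transcripts, and every level below is a deposited normalized value on a log2 scale. The labels give small intestinal crypts as the source, while the extraction text speaks of liver. The epithelial genes Epcam and Vil1 had mean levels of 11.57 and 10.82 over the 20 libraries. Of 12 hepatocyte markers, 2 reached the minimum mean, namely Cps1, a urea cycle enzyme that intestinal epithelium also makes, and Ttr, whose mean was 4.11. The depth of the libraries is unknown. As a proxy, the share of rarely detected genes standing above their plateau averaged 8.74% ± 1.47 in co-housed and 7.71% ± 3.69 in housed-apart wild-type mice (SD, n = 5 and 6; exact permutation p = 0.610, two-sided, over 462 splits). Xiap itself had values of 6.76, 6.84, 6.80, 6.60 and 6.36 in co-housed wild-type mice, and a lowest, median and highest value of 6.56, 6.79 and 7.08 in wild-type mice housed apart. Its values were 6.29 to 6.91 in co-housed and 6.25 to 6.48 in housed-apart Xiap-/- mice, and since 3' reads may come from a stretch that was not deleted, they do not check the genotype.

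Co-housed wild-type crypts had less transcript of Nr1d1, a repressor of the circadian clock, of Slc13a2, a carrier of citrate and other dicarboxylates, of the stress-responsive gene Ndrg1 and of the secreted nuclease Dnase1. They had more of Unc5cl, an epithelial adaptor of inflammatory signalling, and of Wdr44, which takes part in vesicle traffic. None of these differences passed the test. By limma, 0 of 9521 genes (0%) had a Benjamini-Hochberg adjusted p under 0.05, and the unadjusted p was under 0.05 for 969 (10.2%), against 476 expected by chance. Of these, 505 (5.3%) were higher and 464 (4.87%) lower in co-housed mice. The comparison asks whether living with Xiap-/- mice alters the crypts of wild-type mice.

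Nr1d1 had levels of 5.39, 5.62, 5.61, 5.58 and 5.40 in the co-housed mice, against a lowest, median and highest of 5.94, 6.10 and 6.88 in mice housed apart. Slc13a2 had levels of 7.39, 7.58, 7.32, 7.42 and 7.12 in co-housed mice, against 7.62, 7.94 and 8.65. Ndrg1 had levels of 7.58, 7.47, 7.39, 7.44 and 7.52 in co-housed mice, against 7.63, 8.001 and 8.38. For these genes every co-housed mouse lay below every mouse housed apart. The differences were -0.69 ± 0.13 for Nr1d1, -0.65 ± 0.13 for Slc13a2 and -0.50 ± 0.10 for Ndrg1 (SE, limma adjusted p = 0.0612 for each). Nr1d1 lies on chromosome 11 (98767932 to 98775333), Slc13a2 on chromosome 11 (78397087 to 78422217) and Ndrg1 on chromosome 15 (66929318 to 66969640), in GENCODE M21 on GRCm38. Nr1d1 overlaps the thyroid hormone receptor gene Thra on the other strand, as Dnase1 does Trap1, and whether the counting used the strand is not given in the sources used here. Thra had a difference of -0.11 ± 0.11 and Trap1 one of 0.01 ± 0.08.

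Dnase1 (chromosome 16, 4036942 to 4040024) had levels of 8.70, 8.80, 8.80, 8.74 and 8.84 in co-housed mice, against a lowest, median and highest of 8.91, 9.34 and 9.72 in mice housed apart, again without overlap. Its difference was -0.53 ± 0.11 (limma adjusted p = 0.0900). Unc5cl (chromosome 17, 48454901 to 48539714) had levels of 6.55, 6.47, 6.91, 6.61 and 6.65 in co-housed mice, against 5.76, 6.14 and 6.54. Housed-apart replicate 4, at 6.54, was the only one within the co-housed range, and the difference was 0.52 ± 0.11 (limma adjusted p = 0.0773). Wdr44 had levels of 4.83 to 5.10 in co-housed mice and 4.53 to 4.67 in mice housed apart, without overlap (difference 0.34 ± 0.08, limma adjusted p = 0.137).

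The other genes among the 10 with the smallest p differed by less. Glb1, the lysosomal beta-galactosidase, had a difference of -0.39 ± 0.09 (limma adjusted p = 0.137), and Ptgr1, a reductase of prostaglandins and leukotrienes, one of -0.45 ± 0.10 (0.148). Fry, a scaffold of NDR kinases, had a difference of 0.40 ± 0.09 (0.148), and Fndc3b, a fibronectin domain protein, one of 0.33 ± 0.08 (0.148). Fry lay within 3.87 to 3.98 in the co-housed mice, and housed-apart replicate 4, at 4.01, lay above them while the other mice housed apart lay at or below 3.56. Among housed-apart mice, replicate 4 was also the one nearest to the co-housed mice for Nr1d1, Slc13a2, Ndrg1, Unc5cl, Dnase1, Wdr44 and Ptgr1. Without that library, 66 genes passed by limma, 38 higher and 28 lower, all 10 of these genes among them. The count was 0 without any other single wild-type library.

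**Figure D1:**
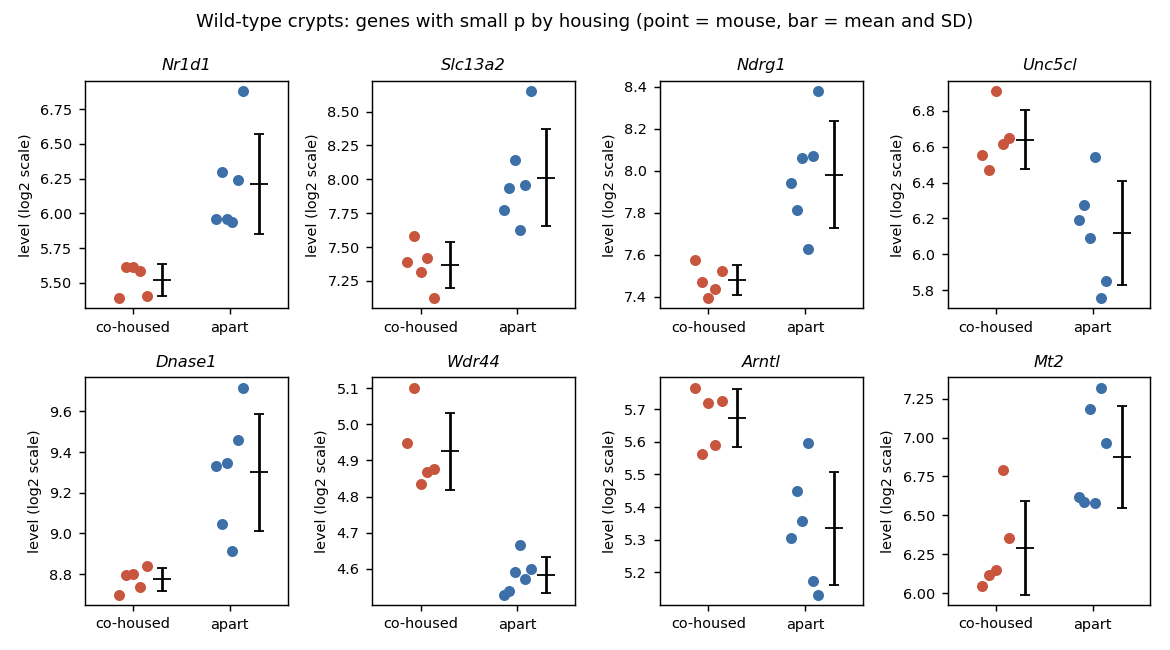
Levels on the log2 scale of 8 genes in each wild-type mouse, co-housed (left) and housed apart (right), with the mean and SD of each group as bars. Co-housed mice lie below mice housed apart without overlap for Nr1d1, Slc13a2, Ndrg1 and Dnase1 and above them for Wdr44, and the groups overlap for Unc5cl, Arntl and Mt2.

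Across all tested genes the differences were small. They ran from -0.91 for Pck1, the gluconeogenic enzyme, to 0.59 for Tymp, which breaks down thymidine, both named after their values were seen. A difference beyond 0.5 in size was seen for 16 genes and beyond 1 for 0, and the median standard error was 0.09. The median difference of all genes was -0.01, with 48.1% of genes above 0 and 51.9% below. The values of the groups did not overlap for 50 genes (0.525%), of which 29 (0.305%) were higher and 21 (0.221%) lower in co-housed mice. For any gene, a share of 0.00216 of the 462 splits of 5 against 6 mice leaves no overlap in a given direction. The share seen was close to this on the lower side and above it on the higher side. Pck1 had levels of 6.18, 6.56, 6.37, 6.34 and 6.04 in co-housed mice, against a lowest, median and highest of 6.46, 6.99 and 7.99 in mice housed apart (limma adjusted p = 0.312). Tymp had 4.60, 4.11, 4.13, 4.69 and 5.69 in co-housed mice, against 3.97, 4.04 and 4.18 (limma adjusted p = 0.476), so that replicate 5 gave much of the difference, which was 0.33 without it. On chromosome 15, Tymp (89371931 to 89377039) overlaps Sco2 (89371637 to 89373846) on the same strand. Reads of the shared stretch cannot be told apart, and Sco2 was also highest in co-housed wild-type replicate 5 among co-housed wild-type mice.

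Genes of the circadian clock lay on both sides of 0. In the clock, Clock and Arntl drive transcription of the repressors of the Nr1d, Per and Cry families and of the output factors Dbp and Tef, and Nr1d1 in turn represses Arntl. Of 23 listed clock genes, 17 reached the minimum mean, 11 with a lower and 6 with a higher level in co-housed mice, and the median difference was -0.05. An unadjusted p under 0.05 was reached by 6 on the lower side and by 1 on the higher side, against 4.87% and 5.3% of all tested genes, and the 6 became 1 at a minimum mean of 5. The median was -0.08 without co-housed replicate 2. The members named next, other than Nr1d1, were picked after their values were seen, and none passed.

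Dbp had levels of 3.15, 3.17, 3.08, 3.23 and 3.23 in co-housed mice, against a lowest, median and highest of 3.18, 3.48 and 4.47 in mice housed apart. Its difference was -0.52 ± 0.17 (limma adjusted p = 0.369). Its means in co-housed mice, 3.17 in wild-type and 3.12 in Xiap-/- animals, lay below the minimum mean. Dbp was therefore tested only through the mice housed apart and had to differ to be tested. It is among the 6 lower members counted above, and its values are given as a description. Tef had a difference of -0.33 ± 0.10 (0.312) and Nr1d2, the paralog of Nr1d1, one of -0.28 ± 0.11 (0.389). Arntl, on the activating side, had levels of 5.77, 5.56, 5.72, 5.59 and 5.73 in co-housed mice, against 5.13, 5.33 and 5.60. Its difference was 0.34 ± 0.09 (limma adjusted p = 0.234), and that of its partner Clock 0.24 ± 0.12 (0.518). Arntl overlapped between the groups only through housed-apart replicate 4, which had the 5.60. Per2 and Per3, of the repressor families, were below the minimum mean and not tested. Per2 had a lowest, median and highest of 2.76, 3.05 and 3.07 in co-housed mice, against 2.74, 2.83 and 3.05 in mice housed apart. Per3 had 2.45, 2.54 and 2.66, against 2.40, 2.65 and 2.93. The median of Per2 was thus higher in co-housed mice and that of Per3 lower. The time of day at which tissue was taken is not in the labels, and its part in these values was not tested. The RefSeq promoter windows of Nr1d1, Dbp and Arntl, 300 bases each, were searched on both strands. Those of Nr1d1 and Dbp held no E-box with the letters CACGTG, which 7.15% of 32851 mouse promoter windows hold. That of Arntl held no TAGGTCA or TGGGTCA, letters bound by Nr1d1, which 6.45% hold. Only these exact letters were searched, so sites with other letters or outside the windows were not looked for. Whether these genes lack such sites therefore cannot be told.

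The metallothioneins Mt1 and Mt2, small proteins that bind zinc and copper, both lay lower in co-housed mice, without passing. Both were named after their values were seen. Their genes are neighbours on chromosome 8, at 94179082 to 94180327 for Mt1 and 94172664 to 94173568 for Mt2, and are known to be driven by metals through the factor Mtf1, which binds metal response elements. Their promoter windows, 300 bases around the start of the gene (RefSeq, GRCm38.p6, plus strand, chr8:94178839-94179138 for Mt1 and chr8:94172368-94172667 for Mt2), are shown because both genes share this element. Capitals mark the letters TGCGCNC or TGCACNC on either strand:
Mt1: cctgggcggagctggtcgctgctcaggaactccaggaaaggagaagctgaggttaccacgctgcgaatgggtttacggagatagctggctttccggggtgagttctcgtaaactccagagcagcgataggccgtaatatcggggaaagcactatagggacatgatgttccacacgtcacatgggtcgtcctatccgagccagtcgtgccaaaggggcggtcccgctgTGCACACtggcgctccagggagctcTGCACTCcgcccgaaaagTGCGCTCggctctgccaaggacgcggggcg
Mt2: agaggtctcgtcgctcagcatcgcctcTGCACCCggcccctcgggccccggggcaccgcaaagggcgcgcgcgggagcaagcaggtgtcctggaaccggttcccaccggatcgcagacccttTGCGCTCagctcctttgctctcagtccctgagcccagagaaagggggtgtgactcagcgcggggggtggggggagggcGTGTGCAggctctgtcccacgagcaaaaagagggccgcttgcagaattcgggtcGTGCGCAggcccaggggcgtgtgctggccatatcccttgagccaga
The window of Mt1 holds 3 matches and that of Mt2 holds 4. Of the 32851 promoter windows, 25.7% hold at least 1 match and 1.97% at least 3. Of the 7069 windows of genes tested here, 36.6% hold at least 1.

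Mt1 had levels of 8.95, 9.16, 9.08, 9.50 and 9.47 in co-housed mice, against a lowest, median and highest of 9.24, 9.80 and 9.94 in mice housed apart. Mt2 had levels of 6.05, 6.12, 6.15, 6.79 and 6.36 in co-housed mice, against 6.58, 6.79 and 7.32. Co-housed replicate 4 was the highest co-housed mouse for both genes and lay within the range of mice housed apart. The differences were -0.45 ± 0.12 for Mt1 and -0.58 ± 0.16 for Mt2 (limma adjusted p = 0.261 for each). In Xiap-/- mice the sign was the other way, with 0.13 ± 0.14 for Mt1 and 0.37 ± 0.17 for Mt2. The interaction did not pass for either gene (limma adjusted p = 0.501 and 0.393). Of 18 genes listed for iron and zinc handling, 12 were tested, 10 lay lower in co-housed mice and the median difference was -0.10, or -0.05 without housed-apart replicate 5 or 6.

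**Figure D2:**
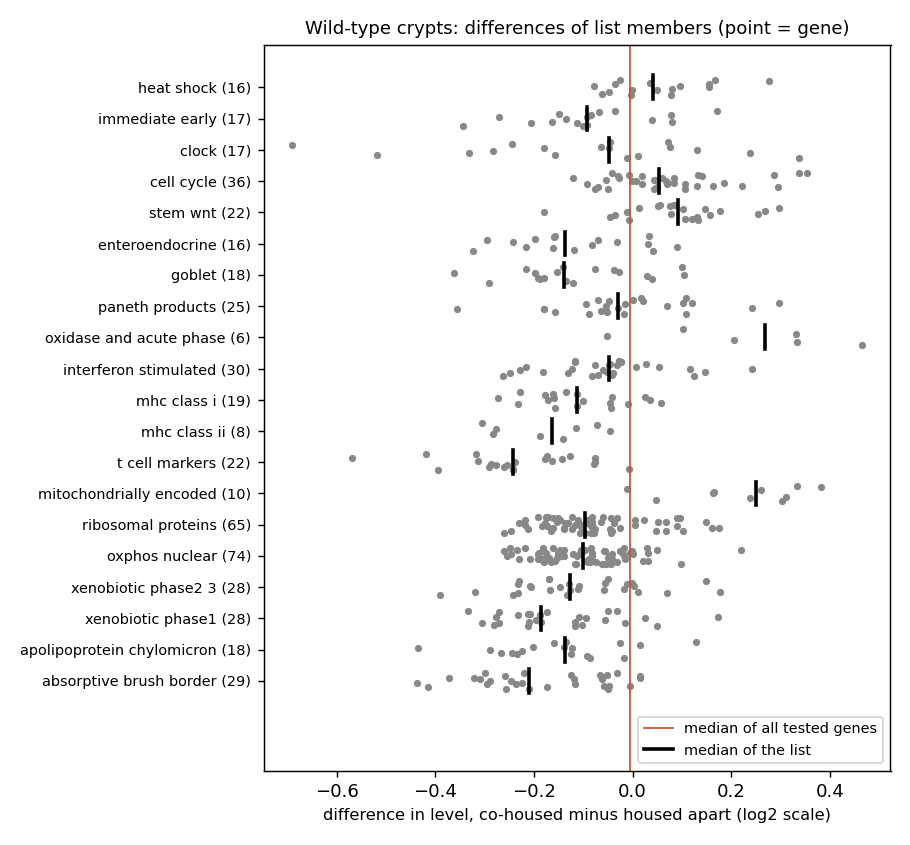
Difference in level (co-housed minus housed apart, log2 scale) of every tested member of 20 gene lists in wild-type mice, with the number of members in brackets, the median of each list as a black bar and that of all tested genes as a line. The medians lie at -0.24 for T cell markers and -0.21 for brush border genes, and at 0.25 for mitochondrially encoded genes.

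Transcripts of the absorptive cells lay lower in co-housed mice as a group. The list of 29 brush border genes, which hold digestive enzymes and nutrient carriers, had 27 members with a lower level, a median difference of -0.21 and 7 members with an unadjusted p under 0.05, all lower, against 4.87% of all tested genes. That number was 4 without housed-apart replicate 6 and 14 without housed-apart replicate 2 or 4. The fructose carrier Slc2a5 had levels of 7.11, 7.09, 6.94, 7.09 and 6.97 in co-housed mice, against a lowest, median and highest of 7.11, 7.48 and 7.89 in mice housed apart, just without overlap (difference -0.44 ± 0.12, limma adjusted p = 0.270). The peptide carrier Slc15a1 had a difference of -0.41 ± 0.14 (limma adjusted p = 0.373), the glucose carrier Slc5a1 one of -0.37 ± 0.12 (0.322) and trehalase (Treh) one of -0.31 ± 0.12 (0.393). These carriers, and the members of the other lists in this and the next paragraphs, were picked with their values in view unless said otherwise.

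Lipid export and drug metabolism, also tasks of absorptive cells, had the same sign. These lists are not separate observations, since Fabp2 is a member of both the brush border and the lipid export list. Housed-apart replicates 5 and 6 also had the highest wild-type means of the lipid export, phase 1 and phase 2 and 3 lists. Of 18 apolipoprotein and chylomicron genes, 16 lay lower (median -0.14, or -0.07 with quantile normalization), and Apoc3, which slows the clearance of lipoproteins, had a difference of -0.44 ± 0.18 (limma adjusted p = 0.454). Of 28 phase 1 enzymes of drug metabolism, 25 lay lower (median -0.19), 6 of them with an unadjusted p under 0.05, against 4.87% of all tested genes. Among these was the cytochrome P450 reductase Por (-0.31 ± 0.10, limma adjusted p = 0.353). The median was -0.09 without housed-apart replicate 6 and -0.10 without housed-apart replicate 5 or co-housed replicate 3. Of 28 phase 2 and 3 genes, 23 lay lower (median -0.13), with a median of -0.06 without housed-apart replicate 6 and -0.07 without replicate 5. Of 14 tested ileal genes, 11 lay lower (median -0.16, or -0.09 without housed-apart replicate 5 and -0.10 without co-housed replicate 5), and the bile acid carriers of the ileum had differences of -0.55 ± 0.19 for Fabp6 (limma adjusted p = 0.370) and -0.33 ± 0.10 for Slc51a (0.312). Fabp6 had levels of 12.23, 12.50, 11.46, 12.06 and 11.09 in co-housed mice, against a lowest, median and highest of 12.09, 12.44 and 12.73. Its difference was -0.36 without co-housed replicate 5. Of 10 tested genes listed for bile acid handling, 7 lay lower and 3 higher. Their median was -0.06, and 0.02 without co-housed replicate 5.

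The mean level of the brush border list was 9.67, 9.72, 9.61, 9.76 and 9.54 in the co-housed mice, and 9.82, 9.54, 9.93, 9.55, 10.10 and 10.12 in housed-apart replicates 1 to 6. Housed-apart replicates 5 and 6 were the highest of all wild-type mice and replicates 2 and 4 fell within the co-housed range, so the groups overlapped. The median difference of the list was -0.13 (without housed-apart replicate 6) to -0.29 when single wild-type libraries were left out, and -0.08 with quantile normalization. In bulk RNA, fewer cells of a type and less RNA per cell cannot be told apart.

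Markers of T cells, which sit between the epithelial cells, also lay lower in co-housed mice. Of 36 markers, 22 were tested and all 22 had a lower mean in co-housed mice (median -0.24), 8 with an unadjusted p under 0.05, against 4.87% of all tested genes on that side. That number was 2 without co-housed replicate 5, 3 without housed-apart replicate 1, 4 without housed-apart replicate 5, and 5 without co-housed or housed-apart replicate 3. With no filter on low values 30 of 34 markers lay lower, with a median of -0.14. The granzyme Gzma, named without regard to its value here, had levels of 9.20, 8.85, 8.76, 8.97 and 8.22 in co-housed mice, against a lowest, median and highest of 8.95, 9.42 and 9.78 in mice housed apart. Its difference was -0.57 ± 0.24 (limma adjusted p = 0.458). The cytotoxic granule protein Nkg7 had a difference of -0.42 ± 0.19 (limma adjusted p = 0.470), the T cell receptor subunits Cd3e and Cd3g differences of -0.32 ± 0.11 (0.373) and -0.31 ± 0.14 (0.478), and the integrin Itgae one of -0.24 ± 0.11 (0.470). The mean level of the list was 4.80 to 5.18 in co-housed mice and 5.01 to 5.52 in mice housed apart, so the groups overlapped.

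Markers of other cell types were scarce. Of the listed markers, 4 of 14 for B and plasma cells, 5 of 19 for myeloid and mast cells, 1 of 17 for stroma, 1 of 14 for acinar cells, 1 of 6 for blood and 0 of 8 for glia reached the minimum mean. The part of such cells in the values here was not tested. The red cell gene Hbb-bs had a difference of -0.48 ± 0.16 (limma adjusted p = 0.360). All 8 tested MHC class II genes lay lower, but their spread was wide, and the median of -0.16 was -0.38 without housed-apart replicate 6 and -0.09 without replicate 1. H2-Aa had levels of 8.36, 8.95, 7.93, 7.63 and 7.45 in co-housed mice, against 7.14, 8.59 and 8.98 as lowest, median and highest in mice housed apart, a difference of -0.28 ± 0.32 (limma adjusted p = 0.773). Of 19 MHC class I genes 16 lay lower (median -0.11, or -0.07 with quantile normalization), with H2-K1 at -0.27 ± 0.10 (limma adjusted p = 0.389). The IgA heavy chain Igha had a difference of -0.27 ± 0.31 (limma adjusted p = 0.780), and Pigr, which carries IgA across the epithelium, one of -0.11 ± 0.12 (0.775).

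**Figure D3:**
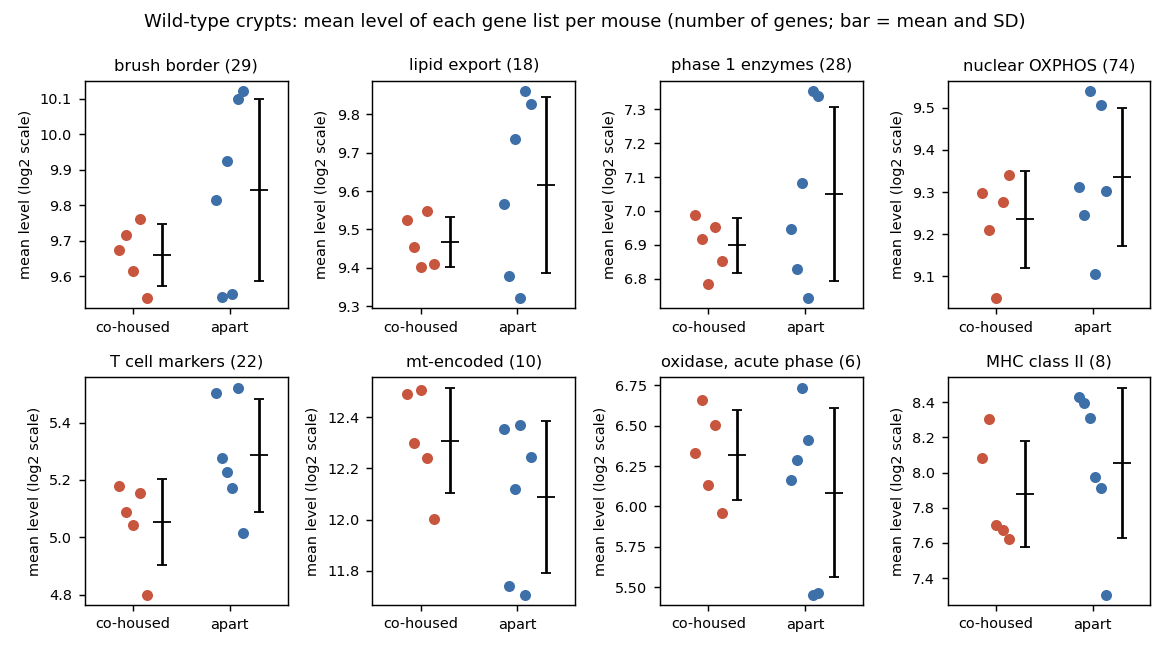
Mean level (log2 scale) of 8 gene lists in each wild-type mouse, co-housed (left) and housed apart (right), with group mean and SD as bars. The groups overlap in every list shown, and housed-apart replicates 5 and 6 have the highest brush border means (10.10 and 10.12) and the lowest oxidase and acute phase means (5.45 and 5.46).

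Genes of energy metabolism were split by genome. Of 74 nuclear genes of oxidative phosphorylation, 67 lay lower in co-housed mice (median -0.10), 7 with an unadjusted p under 0.05, against 4.87% of all tested genes. Their median was -0.01 with quantile normalization, -0.06 without housed-apart replicate 3 and -0.07 without co-housed replicate 3, and the 7 became 28 without housed-apart replicate 4 and 2 without co-housed replicate 2 or 3. Of 10 mitochondrially encoded genes, 9 lay higher (median 0.25), 3 with an unadjusted p under 0.05, against 5.3% of all tested genes. Their median was 0.16 without housed-apart replicate 2 and 0.14 with array weights, and the 3 became 0 without housed-apart replicate 2 or co-housed replicate 1 or 3 and 6 without housed-apart replicate 4. The subunit mt-Nd5 had levels of 11.80, 11.41, 11.67, 11.47 and 11.17 in co-housed mice, against a lowest, median and highest of 10.39, 11.13 and 11.64 in mice housed apart, a difference of 0.38 ± 0.15 (limma adjusted p = 0.439). Ribosomal protein genes had a median of -0.10, with 51 of 65 lower, and the median was -0.04 without co-housed replicate 3 or with quantile normalization and -0.05 without housed-apart replicate 3. The mitochondrial share of transcripts can also follow the quality of the RNA, which was not tested.

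The lists of dividing and stem cells leaned the other way. Of 36 cell cycle genes, 25 lay higher in co-housed mice (median 0.05), 4 with an unadjusted p under 0.05, against 5.3% of all tested genes. The median was 0.02 without housed-apart replicate 6, 0.03 without co-housed replicate 2 and 0.09 without co-housed replicate 3, and the 4 became 2 without housed-apart replicate 6 or co-housed replicate 1. The proliferation marker Mki67 had levels of 7.87, 8.09, 8.11, 7.86 and 8.12 in co-housed mice, against a lowest, median and highest of 7.33, 7.59 and 8.10 in mice housed apart. Its difference was 0.35 ± 0.13 (limma adjusted p = 0.389), and that of the kinetochore gene Cenpf 0.34 ± 0.14 (0.454). Housed-apart replicate 4 was again the exception, with the highest value of its group for both genes. Of 22 stem cell and Wnt genes 17 lay higher (median 0.09, or 0.14 without housed-apart replicate 2), while the stem cell marker Olfm4, named without regard to its value here, had a difference of 0.08 ± 0.19 (limma adjusted p = 0.909).

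The lists of Paneth, goblet and enteroendocrine cells had medians between -0.14 and -0.03. That of tuft cells had a median of -0.01, with 6 of 11 lower, and its sign turned in 7 of 20 settings. The 25 tested Paneth cell products had a median difference of -0.03, with 15 lower and 10 higher. The alpha-defensin Defa24 had levels of 14.39, 14.13, 14.13, 14.12 and 13.78 in co-housed mice, against a lowest, median and highest of 13.95, 14.22 and 14.30 in mice housed apart. Its difference was -0.07 ± 0.13 (limma adjusted p = 0.875). The lysozyme Lyz1 had a difference of -0.05 ± 0.12 (limma adjusted p = 0.903), the ribonuclease Ang4 one of -0.02 ± 0.14 (0.976) and the defensin-cleaving protease Mmp7 one of 0.07 ± 0.17 (0.914). Their signs turned under single settings or without single libraries, those of Lyz1, Defa24 and Ang4 without co-housed replicate 5. Goblet cell genes had a median of -0.14 (-0.09 with quantile normalization), 14 of 18 lower, with the trefoil peptide Tff3 at -0.36 ± 0.12 (limma adjusted p = 0.359), and 12 of 16 enteroendocrine genes lay lower (median -0.14, or -0.07 without housed-apart replicate 5).

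Reg3g, Reg3b and Duox2, known to answer microbes, had higher means and narrower ranges in co-housed mice, without passing for either. Their wider list of 11 tested antimicrobial lectins and peptides had 7 members lower and 4 higher and a median of -0.02, whose sign turned in 5 of 20 settings. The lectin Reg3g had levels of 13.08, 13.25, 12.97, 13.23 and 13.09 in co-housed mice, against 12.92, 13.01, 13.77, 13.24, 11.80 and 11.73 in housed-apart replicates 1 to 6. Its difference was 0.38 ± 0.29 (limma adjusted p = 0.674), with SDs of 0.12 and 0.81 (limma adjusted p of the spread = 0.0551). The spread test was set up with earlier results for Reg3g known, so the spread of Reg3g is given as a description. Reg3b had levels of 13.54, 13.66, 13.43, 13.91 and 13.73 in co-housed mice, against 13.41, 13.47, 14.25, 13.65, 12.73 and 12.28 in mice housed apart, a difference of 0.35 ± 0.26 (limma adjusted p = 0.649). In both lectins housed-apart replicates 5 and 6 were the lowest and replicate 3 the highest of all wild-type mice. Reg3a, a related lectin, had its highest value, 9.29, in housed-apart replicate 5, and a difference of -0.11 ± 0.21 (limma adjusted p = 0.880), which was 0.08 without that mouse.

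The oxidase genes followed the same mice. Duox2 had levels of 6.44, 6.68, 6.60, 6.44 and 6.22 in co-housed mice, against 6.23, 6.37, 6.64, 6.46, 5.18 and 5.19 in housed-apart replicates 1 to 6, a difference of 0.47 ± 0.24 (limma adjusted p = 0.531). Its maturation factor Duoxa2 had a difference of 0.33 ± 0.27 (0.683), the nitric oxide synthase Nos2 one of 0.21 ± 0.23 (0.770) and the acute phase protein Saa1 one of 0.33 ± 0.53 (0.857), which was -0.05 without housed-apart replicate 5. Of the 6 tested genes of this oxidase and acute phase list, 5 lay higher in co-housed mice (median 0.27) and 0 had an unadjusted p under 0.05. The median was 0.10 without housed-apart replicate 6 and 0.40 without replicate 3, and between these without housed-apart replicate 5 (0.12) or co-housed replicate 2 or 4. Lcn2 and Tnf, also named without regard to their values here, were below the minimum mean. Pim1, named in the same way, had a difference of -0.15 ± 0.11 (limma adjusted p = 0.649).

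The spread between mice was tested as a comparison of its own, on the distance of each value from its group mean. Earlier results for Reg3g in these same data prompted the question, so the spread of Reg3g is no support for it. The median SD of a gene was 0.13 in co-housed and 0.17 in housed-apart wild-type mice, and the SD was lower in co-housed mice for 71.6% of genes. In Xiap-/- mice the median SDs were 0.13 and 0.12, and the SD was lower in co-housed mice for 49.7% of genes. The depth proxy ran from 7.50% to 11.1% in co-housed wild-type libraries. In those housed apart it ran from 4.58% in replicate 6 to 14.9% in replicate 5. In Xiap-/- libraries it ran from 4.69% to 12.4% in co-housed animals and from 9.55% to 32.1% in animals housed apart. The part of depth in the spread was not tested. By limma with an adjusted p under 0.05, 25 genes (0.263%) varied less and 3 (0.0315%) more in co-housed wild-type mice. The 25 include Dbp, which was tested only through mice housed apart. All 29 brush border genes and 67 of 74 nuclear genes of oxidative phosphorylation had the lower SD in co-housed mice.

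Dmbt1, a mucosal scavenger protein that binds bacteria, had levels of 11.28, 11.25, 11.22, 11.30 and 11.39 in co-housed mice, against 11.19, 11.39, 11.80, 11.59, 10.48 and 10.70 in housed-apart replicates 1 to 6 (limma adjusted p of the spread = 0.0147). Gpx2, the glutathione peroxidase of the gut, had levels of 10.45, 10.38, 10.46, 10.45 and 10.33 in co-housed mice, against 9.92, 10.70, 10.49, 10.41, 9.48 and 9.51 in mice housed apart (0.0243). For both genes, housed-apart replicates 5 and 6 were the lowest, as they were for Reg3g and Duox2. Scand1 and the actin-severing protein Cfl1 also varied less in co-housed mice (0.0147 each), as did the mitochondrial fission protein Fis1 and the actin-binding protein Palld (0.0379 each), the phosphatase Ctdsp2 (0.0322) and Ammecr1 (0.0379). Among the 10 with the smallest p were also Tcea1-ps1, a pseudogene whose reads cannot be told apart from those of its parent gene where the sequence is shared, and n-R5-8s1, a 5.8S ribosomal RNA gene at 4.19 to 4.48 in co-housed and 4.19 to 6.67 in housed-apart mice (0.0236 each). Bcl2l13, Ttc37 and Arhgef39, named after their values were seen, varied more in co-housed mice, as did no other gene.

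These calls of single genes rest on the choice of model and on single mice. There were 0 when distances were taken from the group median, 0 when only the wild-type libraries were fitted, and 0 without co-housed replicate 1, 2, 4 or 5, while the count was 15 without co-housed replicate 3. Leaving out housed-apart replicates 1 to 6 in turn gave 195, 20, 92, 47, 14 and 41. The share of genes with the lower SD in co-housed mice stayed between 68.0% and 75.1% whichever wild-type library was left out.

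**Figure D4:**
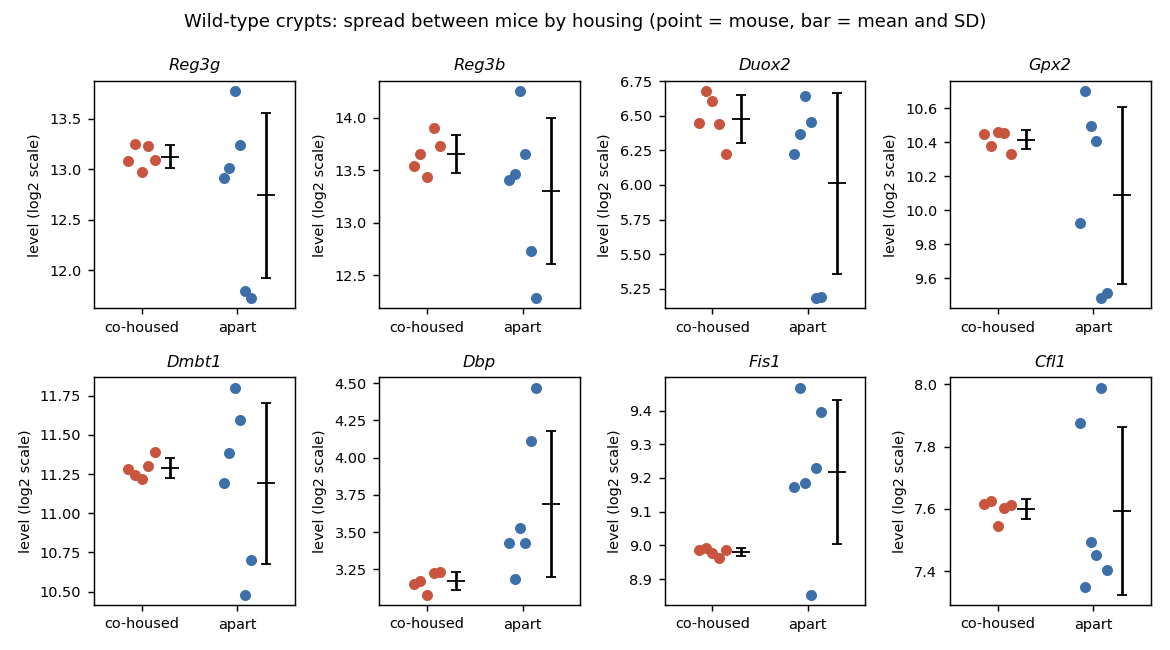
Levels on the log2 scale of 8 genes in each wild-type mouse, co-housed (left) and housed apart (right), with mean and SD as bars. The SD of Reg3g is 0.12 in co-housed mice and 0.81 in mice housed apart, and the lowest values of Reg3g, Reg3b, Duox2, Gpx2 and Dmbt1 are those of housed-apart replicates 5 and 6. Dbp was tested only through mice housed apart.

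Over all tested genes, 57.8% of the wild-type differences had the same sign in Xiap-/- mice. Of the 10 genes with the smallest p in wild-type mice, 8 had the same sign in Xiap-/- mice, while Glb1 had 0.00 ± 0.10 and Fry -0.06 ± 0.10 there. Of the 969 genes with an unadjusted p under 0.05 in wild-type mice, 64.9% had the same sign there. Across genes the differences of the genotypes had r = 0.25, a description, since genes are not independent replicates. Dnase1 fell in Xiap-/- mice, to 8.79, 8.70, 8.86, 8.98 and 8.92 in co-housed animals, against 9.23, 9.67, 9.86 and 9.47 in animals housed apart. That difference was -0.71 ± 0.12 (limma adjusted p = 0.00829), and it did not differ detectably from that of wild-type mice (wild-type minus Xiap-/- 0.18 ± 0.17, limma adjusted p = 0.877). The Xiap-/- values of Nr1d1 and Ndrg1 were -0.40 ± 0.15 and -0.43 ± 0.11, and that of Slc13a2 -0.10 ± 0.14.

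In Xiap-/- mice, 14 genes (0.147%) passed by limma, 5 higher and 9 lower in co-housed animals. Of these, 11 had the same sign in wild-type mice, where Dnase1 and the fatty acid receptor Cd36 (-0.23 ± 0.11) had an unadjusted p under 0.05. That count was 169 with only the Xiap-/- groups in the fit, 189 with replicate number as a block and 1, Hspa1b, with the depth proxy as a covariate, with which Dnase1 did not pass. That proxy was 32.1% in housed-apart Xiap-/- replicate 2, above all other libraries. In the test of whether the housing difference differs between the genotypes, 1 gene (0.0105%), the inducible chaperone Hspa1b, was called by limma, and 7.05% of genes had an unadjusted p under 0.05. Both wild-type group means of Hspa1b, 3.19 and 3.25, lay below the minimum mean, so that it was among the tested genes only through the co-housed Xiap-/- mice and had to differ to be tested. Its values are therefore given as a description. With no filter on low values it was the 1 gene called among all 23020. It had levels of 3.18, 3.21, 3.10, 3.27 and 3.19 in co-housed wild-type mice, against a lowest, median and highest of 3.03, 3.26 and 3.45 in wild-type mice housed apart, a difference of -0.06 ± 0.11 (SE). In Xiap-/- mice it had levels of 4.47, 4.30, 4.35, 4.00 and 5.00 in co-housed animals, against 3.25, 3.33, 3.33 and 3.64, a difference of 1.03 ± 0.12.

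The difference of those differences, wild-type minus Xiap-/-, was -1.10 ± 0.17 for Hspa1b. The related gene Hspa1a was not tested, having a level of 2.84 to 3.03 in co-housed and 2.80 to 3.17 in housed-apart wild-type mice, and reads of these near-identical copies can be split between them. For the assembly factor Sco2, the water channel Aqp8 and the carboxylesterase Ces1d, the wild-type differences were 0.22 ± 0.18, 0.01 ± 0.12 and 0.17 ± 0.09, against -0.90 ± 0.20, -0.59 ± 0.13 and -0.31 ± 0.10 in Xiap-/- mice, and the interaction did not pass (limma adjusted p = 0.393, 0.477 and 0.441). Tymp, which overlaps Sco2 on the same strand, had 0.59 ± 0.26 in wild-type and -0.83 ± 0.29 in Xiap-/- mice. The values of Tymp and Sco2 are therefore not separate observations.

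**Figure D5:**
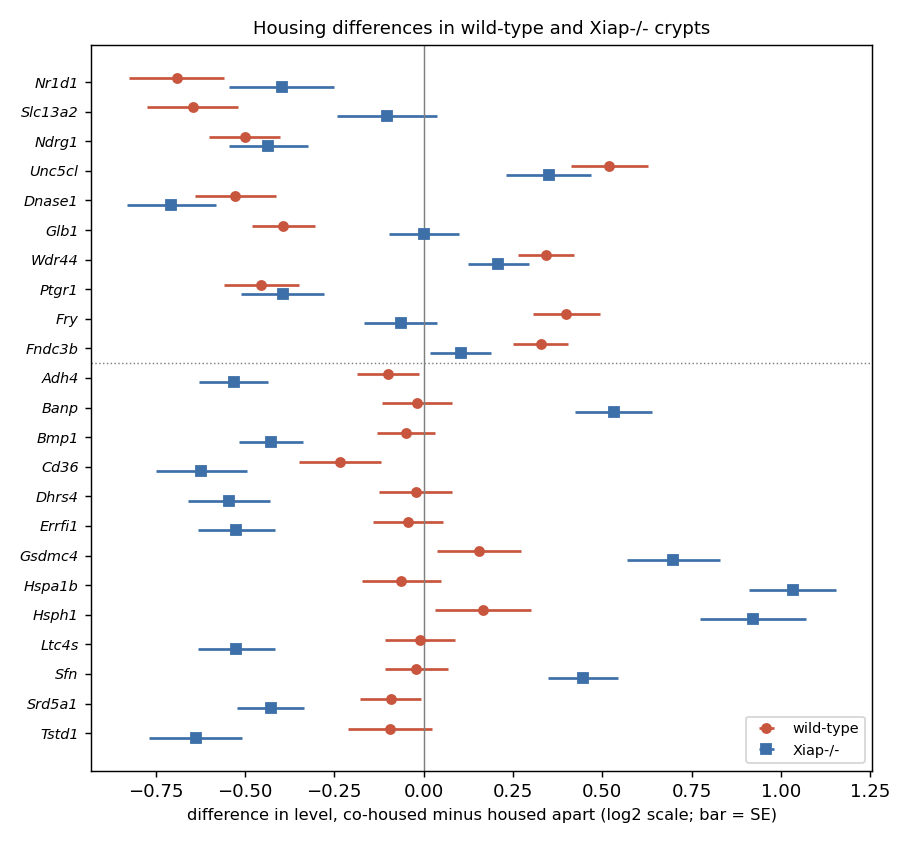
Housing difference (co-housed minus housed apart, log2 scale, bar = SE) in wild-type (circles) and Xiap-/- mice (squares) for the 10 genes with the smallest p in wild-type mice (above the dotted line) and the other 13 genes that passed in Xiap-/- mice. For Hspa1b the wild-type value is -0.06 and the Xiap-/- value 1.03.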

How the data were processed

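The values analysed are those the authors deposited: normalized expression on a log2 scale, from -3.88 to 16.30, per gene and library. Per the labels' protocols, libraries were 3' poly(A) libraries with unique molecular identifiers, amplified as 1 pool. DESeq2 1.18.1 and GRCm38.p6 are named in the submitters' processing notes, and the transformation is not given in the sources used here, so whether it shrinks differences of low genes is unknown. Counts and depth per library are not used here, and no counting interval can be given.

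With limma 3.58.1 in R 4.3.3, a linear model with a mean for each of the 4 groups used all 20 libraries (16 residual degrees of freedom, variance trend, robust moderation), without a pseudocount. Tests were two-sided, at a Benjamini-Hochberg adjusted p of 0.05. Spread was tested in the same way on absolute distances from the group mean, scaled for group size. The depth proxy is the share of genes with a mean below -3 that lie over 0.015 above their median. Gene lists (47) were given by counts and medians, without a test. The groups, gene lists and questions were chosen with earlier results of these data known.

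Genes named are the 10 with the smallest p in wild-type mice, where fewer than 10 passed; the 10 with the smallest p for spread; and, regardless of their values here, Reg3g, Reg3b, Reg3a, Pigr, Duox2, Duoxa2, Nos2, Saa1, Lcn2, Dnase1, Lyz1, Defa24, Ang4, Mmp7, Gpx2, Pim1, Sco2, Aqp8, Ces1d, Hspa1a, Hspa1b, Igha, Gzma, Olfm4, Tnf and Xiap. All other genes were named after their values were seen. No columns were identical. Symbols were matched to GENCODE M21 for 97.8% of tested genes, and 24 date-like names were left unnamed. Alternatives covered the fit, weights, filter, scaling, depth, replicate number and each wild-type library. The scripts were tested on simulated data, drawn independently for each gene. There the spread test recovered 99 of 200 genes whose spread was widened 4 times, with 14 false calls among the other 9321. The simulation therefore does not vouch for single spread calls.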

Additional observations from a re-analysis of the deposited data

Results flagged for a closer look

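In groups of this size, a value standing apart is met in about 1 in 20 groups by chance, and 160 groups of values of the named genes were examined. A single mouse stood apart from its group in 2 of them. Fry had a level of 3.98 in co-housed wild-type replicate 3, while the other 4 co-housed mice lay at 3.87 to 3.89. Lyz1 had a level of 11.54 in co-housed wild-type replicate 5, the lowest of its group, with the nearest other mouse at 12.003. For Hspa1b, the housing difference of wild-type mice minus that of Xiap-/- mice was -1.10 ± 0.17 (SE). The wild-type difference was -0.06 ± 0.11 and the Xiap-/- difference 1.03 ± 0.12. Both wild-type means of this gene, 3.19 in co-housed mice and 3.25 in mice housed apart, lay below the minimum mean, so it was tested only through the co-housed Xiap-/- mice, and the value is a description.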

How the results depend on the processing

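The number of genes passing by housing in wild-type mice was 0 in 17 of 20 alternative settings. It was 5 with array weights, 5 with no filter on low values and 0 to 66 when single libraries were left out, with 66 reached without housed-apart replicate 4; the cause was not tested. The replicate numbers were not treated as pairs. Deviations of same-numbered co-housed and housed-apart wild-type mice correlated between -0.42 and 0.17, and those of Xiap-/- mice were not examined. Whether the numbers mark a shared cage or batch cannot be told from these values. With the replicate block 0 genes passed in wild-type mice, 189 by housing in Xiap-/- mice and 10 by the interaction. Housing in Xiap-/- mice gave 169 genes with only its groups in the fit and 1 with the depth proxy. The interaction gave 4 genes with array weights and 0 at a minimum mean of 5, which drops Hspa1b. Spread calls numbered 0 around group medians, 0 in the fit of wild-type groups alone, and 0 to 195 when single libraries were left out. Signs turned for genes near 0: Pigr was 0.040 with quantile normalization; Ang4 was 0.040 with array weights and 0.047 with quantile normalization; Mmp7 was -0.039 and Aqp8 -0.0074 with the replicate block, and Aqp8 -0.0058 with each library centred on its median. With single libraries left out, Reg3a ran from -0.24 to 0.080, Saa1 from -0.051 to 0.60, Lyz1 from -0.10 to 0.051, Defa24 from -0.14 to 0.013, Ang4 from -0.074 to 0.11, Mmp7 from -0.039 to 0.19 and Aqp8 from -0.061 to 0.090. The medians of the lists described by a direction in the text kept their sign in every setting, with the following exceptions. The Paneth list turned in 6, the antimicrobial list in 5, the tuft cell list in 7 and the bile acid list in 1. The depth proxy comparison did not pass with either alternative definition. Depth is unknown, so differences of low genes are the least certain.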

Other observations

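A few genes outside the lists described so far, all chosen after their values were seen, lay among the larger differences in wild-type mice, and none passed. Ptk6, an epithelial kinase, had levels of 6.00, 5.83, 6.24, 6.20 and 6.15 in co-housed mice, against a lowest, median and highest of 5.30, 5.62 and 6.05 in mice housed apart (difference 0.44 ± 0.11, limma adjusted p = 0.234). Its difference in Xiap-/- mice was 0.48 ± 0.12 (limma adjusted p = 0.106). Pdia4, a folding enzyme of the endoplasmic reticulum, had a difference of 0.41 ± 0.14 (limma adjusted p = 0.373), while Herpud1 and Trib3, stress genes of the same compartment, had differences of -0.35 each, and the median of the 24 tested genes of that list was 0.03 (0.00 without co-housed replicate 5).

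Immediate early genes leaned lower, with 13 of 17 below 0 and a median of -0.09, or -0.05 without co-housed replicate 5. Junb had levels of 7.60, 7.70, 7.78, 7.83 and 7.62 in co-housed mice, against a lowest, median and highest of 7.83, 8.07 and 8.30 in mice housed apart, without overlap (difference -0.34 ± 0.11, limma adjusted p = 0.331). Egr1 had a difference of -0.27 ± 0.10 (limma adjusted p = 0.373). Guca2a, the guanylin peptide that drives fluid secretion, had a difference of -0.42 ± 0.15 (limma adjusted p = 0.386), and the antimicrobial peptide Leap2 one of -0.54 ± 0.27 (0.513), with values from 7.73 to 8.93 in co-housed mice and from 8.11 to 9.58 in mice housed apart. The glucose transporter relative Slc5a4b had a difference of -0.50 ± 0.18 (limma adjusted p = 0.389), and its highest values, 7.33 and 7.28, were again those of housed-apart replicates 5 and 6.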
